A study of Hevea brasiliensis with 6 samples.

Results

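Among the assembled leaf transcripts of the rubber tree (Hevea brasiliensis), 200 unigenes were read in both clones, ‘Reken501’ and ‘93-114’, and stood higher in ‘93-114’ at every time measured. A unigene is a transcript sequence put together from the reads themselves, and its level is given here as a count of fragments (read pairs) or as FPKM, which divides that count by the unigene's length in kilobases and the library's total in M. The 200 were chosen by a rule on these same values. Of 167072 unigenes listed, 74271 had 5 fragments or more in every one of the 6 libraries. For each of these the level was put on the log2 scale, relative to the library's total and to the median unigene of the library, with 0.5 fragments added. The level in ‘Reken501’ was then subtracted from that in ‘93-114’ at control, at 1 h and at 24 h. The 200 unigenes whose smallest difference was highest were kept, 0.269% of those tested.

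The study set a clone described as cold-sensitive (‘Reken501’) beside one described as cold-resistant (‘93-114’). One-year-old plants at the stage of 2 extension units were kept at 28 °C (control) or at 4 °C for 1 h or 24 h. Each of the 6 libraries was made from RNA of a pool of 9 leaves, 3 leaves from each of 3 trees of the clone. Every condition therefore has 1 library, no difference below has a replicate check, and no p-value is given. Intervals in brackets are exact (Clopper-Pearson) at the 95% level and cover counting error only, not the spread between trees.

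Hevea brasiliensis is a tropical tree grown for the natural rubber of its latex, and chilling damages its leaves and limits where it can be planted. A clone is multiplied vegetatively, so that trees of one clone carry the same genotype and different clones can differ at many places in the genome. In an assembly made from reads, sequences that resemble each other are placed in a numbered cluster as separate contigs. Alleles, gene copies and splice forms of one gene can all appear as such contigs, and a difference between clones in the sequence of a transcript can move reads from one contig to another. The tables give unigene IDs and lengths but no gene names or descriptions, so no role is given to any unigene named here. The leaf label could not be set against marker genes for the same reason.

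Library totals ran from 20.4 M fragments (‘93-114’ at control) to 21.9 M (‘93-114’ at 24 h). In ‘Reken501’ the 200 unigenes were little read. Their median was 21 fragments at control, 19 at 1 h and 19 at 24 h, and the highest value in any of these libraries was 685. In ‘93-114’ the median was 573 fragments at control, 426 at 1 h and 421 at 24 h, and the lowest value in any library was 57. Their median FPKM in ‘Reken501’ was 0.642 at control, 0.531 at 1 h and 0.527 at 24 h, where the median over all tested unigenes was 2.74, 2.55 and 2.50. In ‘93-114’ it was 18.4, 12.3 and 11.8 FPKM, beside 2.98, 1.91 and 1.86 over all tested. Above the median of all tested unigenes lay 18, 18 and 23 of the 200 in the ‘Reken501’ libraries at the 3 times, and 196, 194 and 196 in those of ‘93-114’.

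**Figure D1:**
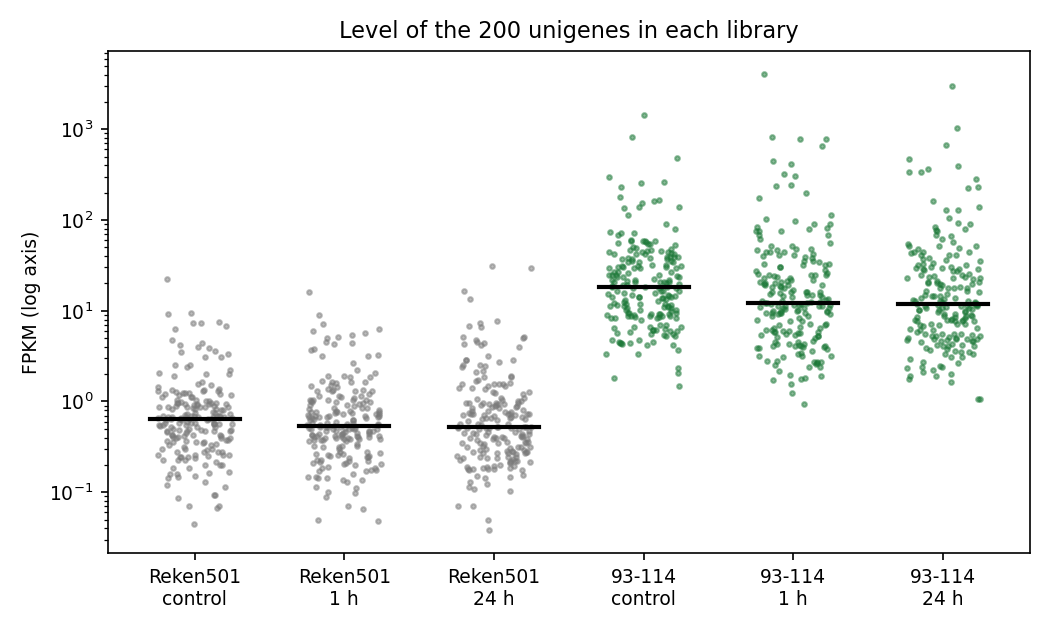
Level of the 200 unigenes in each of the 6 libraries, as FPKM on a log axis, with 1 point per unigene, spread sideways to be seen, and a black bar at the median of the 200. The medians lie between 0.527 and 0.642 FPKM in ‘Reken501’ and between 11.8 and 18.4 FPKM in ‘93-114’.

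As a share of all fragments, the 200 took 0.0335% of the ‘Reken501’ library at control (0.0327 to 0.0343), 0.0329% at 1 h (0.0322 to 0.0337) and 0.0402% at 24 h (0.0394 to 0.0411). In ‘93-114’ the share was 1.26% at control (1.25 to 1.26), 1.62% at 1 h (1.61 to 1.62) and 1.44% at 24 h (1.44 to 1.45). A few unigenes carried much of it. In ‘93-114’ the 5 most-read members held 31.8% of the members' fragments at control, 48.3% at 1 h and 44.8% at 24 h. The same share in ‘Reken501’ was 23.4%, 26.7% and 27.8%. The counts in ‘Reken501’ were low enough to limit the precision of many ratios, since 79 members had under 10 fragments in at least 1 ‘Reken501’ library and 17 had under 10 in all 3. At the other end, 8 members had 100 or more in all 3.

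The difference between the clones had a median over the 200 of 4.50 on the log2 scale at control, 4.67 at 1 h and 4.66 at 24 h, which is 22.6-fold, 25.5-fold and 25.2-fold. The medians over all tested unigenes were -0.08, -0.03 and -0.06. These values come from the measure used for the choice and are a description. By the same choice all 200 were at least 2-fold higher at each time, where 13.9% of the tested unigenes were so at control, 18.0% at 1 h, 14.3% at 24 h and 4.95% at all 3 times. In all 200 the lowest count in ‘93-114’ was above the highest in ‘Reken501’, and on the scaled levels 13.9% of all tested unigenes showed no overlap in that direction. The smallest of the 3 differences was at least 4 for 116 members, at least 5 for 40, at least 6 for 13, at least 7 for 4 and at least 8 for 3. It was set by the control libraries for 99 members, by those at 1 h for 49 and by those at 24 h for 52. The counting interval of the smallest difference had a median width of 1.28, and the lowest lower bound of any difference was 2.17.

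Leaves are made of several cell types, and in such bulk samples more RNA per cell and more cells of a type that carries the RNA cannot be told apart.

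**Figure D2:**
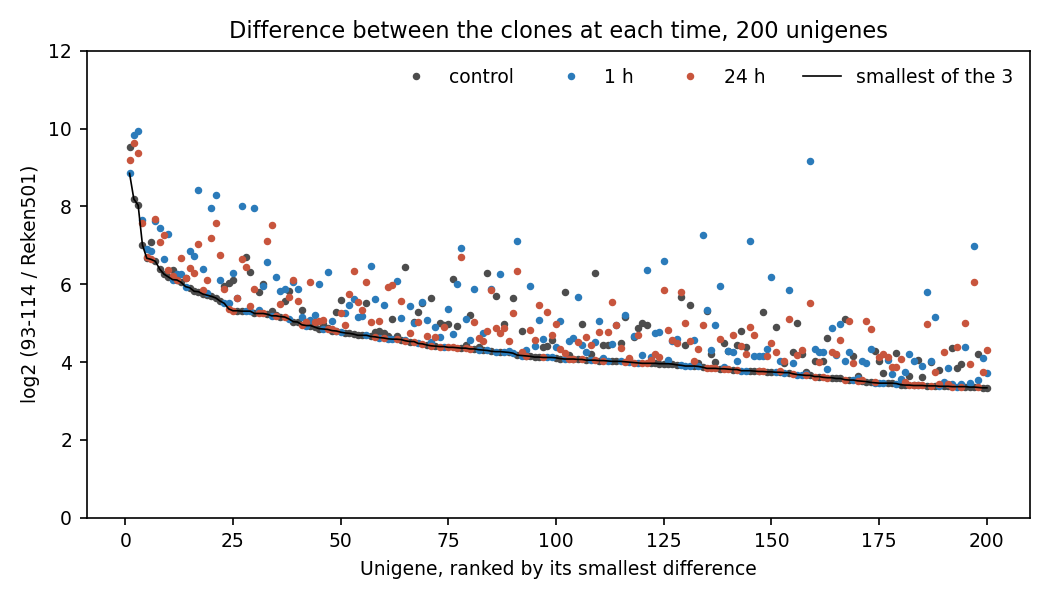
Difference between the clones, log2 of ‘93-114’ minus ‘Reken501’, for each of the 200 unigenes in order of the smallest of the 3 differences, with control, 1 h and 24 h as separate points and a line through the smallest. The smallest values run from 8.85 down to 3.34, while single times reach 9.94.

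The highest smallest difference belonged to Unigene5943_All, which is 2163 bases long and stands in no cluster. In the order control, 1 h and 24 h, which is kept below, it had 7, 11 and 13 fragments in ‘Reken501’ and 6043, 3867 and 6062 in ‘93-114’. All 3 ‘Reken501’ libraries were near the minimum of the rule and all 3 ‘93-114’ libraries were far above it. The differences were 9.54 (8.59 to 10.95), 8.85 (8.07 to 9.91) and 9.19 (8.47 to 10.16), and the smallest of them is 460-fold.

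CL3644.Contig1_All (1024 bases) followed, with 19, 13 and 8 fragments in ‘Reken501’ and 6161, 8964 and 5167 in ‘93-114’. Its differences were 8.19 (7.58 to 8.96), 9.83 (9.11 to 10.79) and 9.63 (8.74 to 10.93). CL11400.Contig2_All (1202 bases) had 22, 27 and 20 fragments against 6365, 19755 and 10481, with differences of 8.03 (7.46 to 8.73), 9.94 (9.43 to 10.57) and 9.38 (8.79 to 10.13). For both contigs the control libraries gave the smallest difference, and in ‘93-114’ both were highest at 1 h.

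CL12002.Contig1_All (933 bases) had 66, 89 and 92 fragments in ‘Reken501’ and 9273, 13050 and 13593 in ‘93-114’, with differences of 7.01 (6.67 to 7.39), 7.64 (7.35 to 7.96) and 7.58 (7.29 to 7.90). CL7239.Contig1_All (1335 bases) had 7, 5 and 6 fragments against 830, 481 and 516, with differences of 6.67 (5.72 to 8.09), 6.90 (5.81 to 8.67) and 6.69 (5.67 to 8.26). The 2 contigs had similar differences from very different counts, and the interval of the second is wider because ‘Reken501’ gave so few fragments.

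By FPKM, which takes length into account, CL9005.Contig3_All (934 bases) was the highest member in ‘93-114’. It had 1426 FPKM at control, 4115 at 1 h and 2965 at 24 h there (authors' values), and 22.4, 16.2 and 29.7 in ‘Reken501’. In fragments these were 27110, 81657 and 60724 against 444, 324 and 600, with differences of 5.81 (5.68 to 5.95), 8.43 (8.27 to 8.59) and 7.04 (6.93 to 7.16). This single contig held 23.7% of all member fragments in ‘93-114’ at 1 h. It was also the most-read member in ‘Reken501’ at control and at 24 h, where its FPKM lay above the median of all tested unigenes.

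CL10219.Contig2_All (1723 bases) came next by FPKM, at 819, 779 and 1029 in ‘93-114’ and 7.52, 5.36 and 6.61 in ‘Reken501’. Its fragments were 28712, 28532 and 38880 against 275, 198 and 246, and its differences were 6.59 (6.42 to 6.77), 7.62 (7.42 to 7.83) and 7.68 (7.50 to 7.87). The third highest was CL12002.Contig1_All, at 488, 658 and 665 FPKM against 3.33, 4.45 and 4.57. At the other end stood CL16078.Contig5_All (2509 bases), with 1.80, 1.71 and 1.07 FPKM in ‘93-114’ from 92, 91 and 59 fragments, against 5, 11 and 7 fragments in ‘Reken501’. The members thus spanned 3 orders of magnitude of FPKM within ‘93-114’, from a mean over its libraries of 1.53 for this contig to 2836 for CL9005.Contig3_All.

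**Figure D3:**
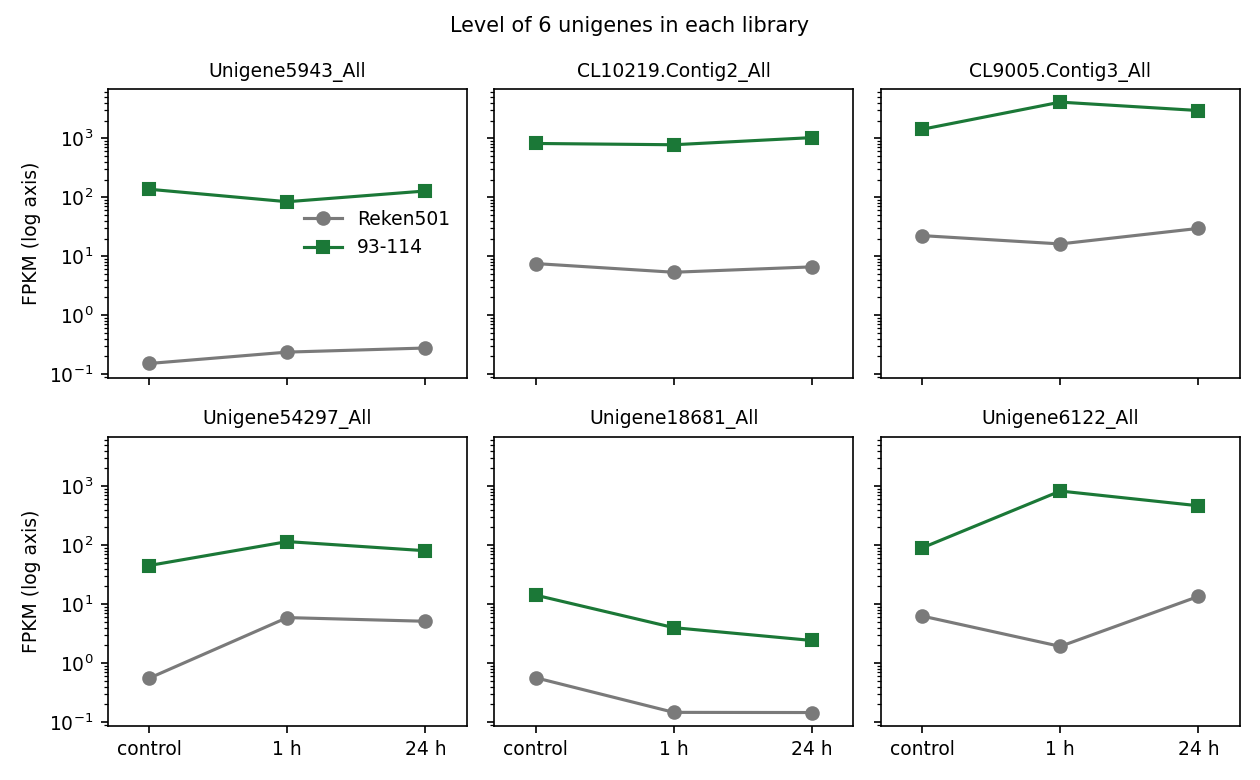
FPKM on a log axis of 6 members in each of the 6 libraries, with ‘Reken501’ as circles and ‘93-114’ as squares, each point 1 library. In every panel the ‘93-114’ points lie above all ‘Reken501’ points. Unigene5943_All stays within a narrow band in each clone, whereas Unigene6122_All goes from 90.1 to 828 FPKM in ‘93-114’ and from 6.28 to 1.92 in ‘Reken501’ at 1 h.

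At the edge of the rule the differences ran on without a break. The last members inside were CL11013.Contig3_All, with 5, 6 and 8 fragments against 60, 81 and 87, and Unigene7942_All, with 68, 50 and 51 against 750, 485 and 780. The first unigenes outside were CL15497.Contig8_All, with 486, 487 and 565 against 5328, 5000 and 8833, and CL3207.Contig1_All, with 14, 12 and 13 against 202, 109 and 104. The smallest differences were 3.34 for the first 3 of these and 3.33 for the fourth, about 10.1-fold, and the interval of Unigene7942_All alone ran from 2.99 to 3.73. Membership near the edge is therefore not resolved by the counts.

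The choice used all 6 libraries, so the same selection was also made with 1 time left out, and the time left out was then read from the 2 libraries that had no part in it. With the control libraries left out, 200 unigenes were selected on 1 h and 24 h out of 78999 with 5 fragments or more in those 4 libraries. At control 195 of them were at least 2-fold higher in ‘93-114’, where 16.2% of all those tested were, and the median difference was 4.66 with a range of -0.41 to 9.54. With 1 h left out, 200 of 200 were at least 2-fold higher at 1 h (19.4% of 81898 tested), with a median of 5.15 and a range of 2.73 to 9.94. With 24 h left out, 200 of 200 were so at 24 h (15.0% of 80876 tested), with a median of 4.81 and a range of 1.83 to 9.86. The 3 selections shared 140, 161 and 164 unigenes with the 200 described here. In the libraries left out, ‘Reken501’ was at 0 for 2, 4 and 2 of the selected unigenes, and taking those at 3 fragments left the counts at 195, 200 and 200. The libraries of one clone are pools of the same genotype, so that the time left out is a separate measurement but not a separate genotype.

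The 5 unigenes that were under 2-fold at control are named here because of their values. Unigene41279_All had 198, 50 and 54 fragments in ‘Reken501’ and 162, 863 and 812 in ‘93-114’. CL11533.Contig2_All had 112, 23 and 43 against 110, 1063 and 881, and CL5129.Contig4_All had 28, 9 and 8 against 33, 242 and 149. In these 3 the clones were close to each other at control (differences of -0.41, -0.14 and 0.12), and in the cold ‘Reken501’ was lower and ‘93-114’ higher than at control. Unigene31182_All, with 1330, 536 and 1765 against 2386, 38163 and 23360, and Unigene31691_All, with 42, 8 and 8 against 88, 346 and 191, had differences of 0.73 and 0.94 at control. None of the 5 is among the 200, since the rule asks for a difference at control too.

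Within the 200, the 3 differences of a member spanned a median of 0.865 on the log2 scale, beside 0.983 over all tested unigenes. The span was under 1 in 120 members (60.0%, 51.1% of all tested), 1 or more in 80, and 2 or more in 19 (9.50%, 11.4% of all tested). The narrowest span was that of Unigene94985_All (1027 bases), with 16, 23 and 16 fragments against 238, 221 and 160 and differences of 3.74 (3.05 to 4.61), 3.69 (3.09 to 4.40) and 3.66 (2.96 to 4.54). The widest was that of Unigene6122_All (1020 bases), with 136, 42 and 297 against 1870, 17948 and 10414 and differences of 3.66 (3.41 to 3.93), 9.17 (8.76 to 9.66) and 5.51 (5.35 to 5.68). For the former the 3 intervals overlap, and for the latter they lie apart at all 3 times.

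The comparison of each cold library with the control library of its own clone uses a contrast the rule did not use, although it comes from the same counts. In ‘Reken501’ at 1 h, 16 members were at least 2-fold higher than at control (8.0% of the 200, 7.16% of all tested) and 19 at least 2-fold lower (9.5%, 7.27% of all tested). At 24 h 21 were higher (10.5%, also 10.5% of all tested) and 22 lower (11.0%, 10.5% of all tested). With a minimum of 10 fragments in each library, the 200 then chosen gave 24 higher (7.86% of all tested) and 9 lower (8.58%) at 24 h, so that the even split of this clone depended on the minimum. In ‘93-114’ at 1 h, 38 were higher (19.0%, 13.2% of all tested) and 8 lower (4.0%, 8.68% of all tested), and at 24 h 32 were higher (16%, 12.6% of all tested) and 12 lower (6.0%, 11.5% of all tested). The median response of the members was -0.05 at 1 h and 0.04 at 24 h in ‘Reken501’, and 0.16 and 0.20 in ‘93-114’. Over all tested unigenes these medians were 0.01, -0.06, 0.06 and -0.04 in the same order. These responses were read from the same 6 libraries that served for the choice, so they are not independent of it.

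The direction of the ‘93-114’ responses rested on the scaling. When libraries were set to their totals alone, without the median unigene as reference, the median over unigenes averaging 10 fragments or more moved to 0.11, -0.50 and -0.49 between the clones at the 3 times, and the members' medians were 4.68, 4.23 and 4.25. The rule was also applied again on that scale, and the list of the same size that it chose shared 180 unigenes with the members. Of that list, 16 were at least 2-fold higher in ‘93-114’ at 1 h and 42 lower (3.98% and 32.5% of all tested). At 24 h 12 were higher and 47 lower (4.62% and 34.7% of all tested). The median response of that list in ‘93-114’ was -0.48 at 1 h and -0.39 at 24 h, beside -0.66 and -0.69 over all tested. The sign of the median thus turned when both the scale and the list changed. The median response of the members themselves on that scale is not given here. Leaving out the reference moves every unigene of a library by the same amount. The place of a fixed list beside all tested unigenes therefore cannot change with it.

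Taken member by member, 106 of the 200 stayed within 2-fold of control in all 4 cold libraries, as did 50.5% of all tested unigenes. At 1 h 4 members were at least 2-fold higher in both clones (1.40% of all tested) and 3 lower in both (1.02%). At 24 h 9 were higher in both (4.11%) and 6 lower in both (3.10%). Opposite responses were counted as well. At 1 h 7 members were at least 2-fold higher in ‘93-114’ and at least 2-fold lower in ‘Reken501’ (1.20% of all tested), and 0 the other way (0.656%). At 24 h there was 1 (0.673%) and 0 the other way (0.466%). With library totals alone, the same 200 had 2 members higher in ‘93-114’ and lower in ‘Reken501’ at 1 h and 2 the other way (0.556% and 1.67% of all tested), and 0 and 1 at 24 h (0.240% and 1.38%). Higher in both clones were then 1 at 1 h and 4 at 24 h, and lower in both 7 and 14. The difference between the clones in response was not tested, with 1 library per condition.

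**Figure D4:**
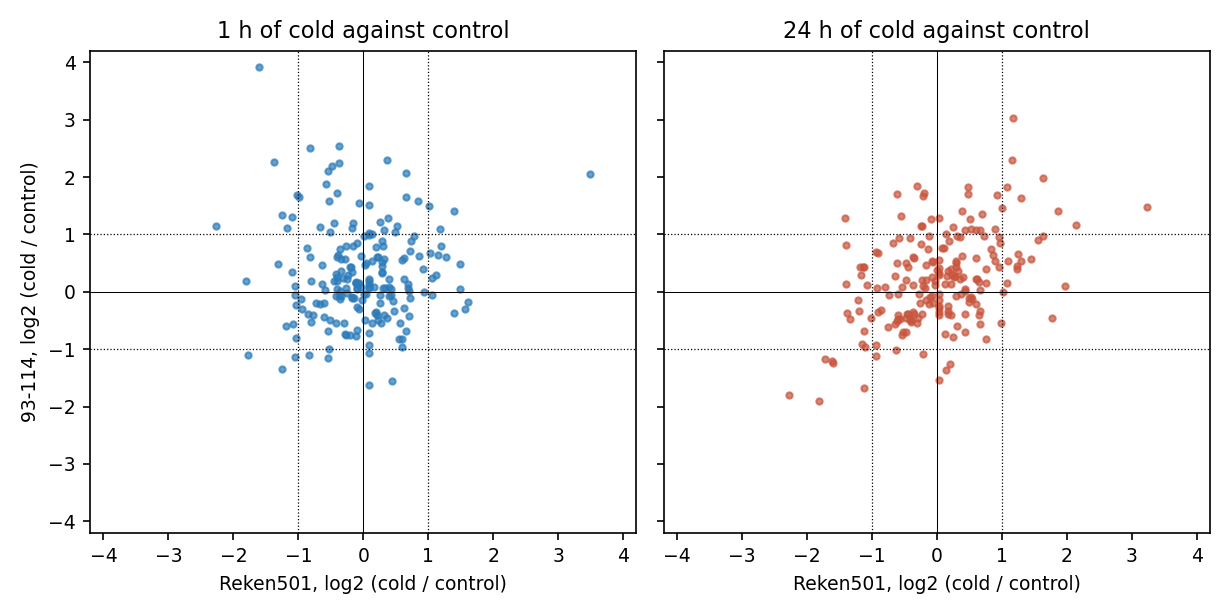
Response to cold of the 200 unigenes, log2 of the cold library minus control, in ‘Reken501’ on the x axis and ‘93-114’ on the y axis, at 1 h and at 24 h, with lines at 2-fold. Most points lie inside the 2-fold lines in both clones, and at 1 h 38 lie above the upper line in ‘93-114’ and 16 beyond it in ‘Reken501’.

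The highest response to cold, by the mean of both clones, was that of Unigene54297_All (2036 bases) at both times. It had 24, 258 and 225 fragments in ‘Reken501’ and 1875, 4968 and 3594 in ‘93-114’. Its response was 3.48 at 1 h and 3.24 at 24 h in ‘Reken501’, and 2.06 and 1.48 in ‘93-114’. The difference between the clones narrowed with it, from 6.14 (5.59 to 6.82) at control to 4.72 (4.54 to 4.90) at 1 h and 4.38 (4.18 to 4.58) at 24 h. Even so its lowest ‘93-114’ value, at control, was above its highest ‘Reken501’ value, at 1 h.

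The lowest response at 1 h was that of Unigene18681_All (1921 bases), with 23, 6 and 6 fragments in ‘Reken501’ and 555, 163 and 102 in ‘93-114’. In ‘Reken501’ it responded by -1.77 at 1 h and -1.81 at 24 h, and in ‘93-114’ by -1.11 and -1.90. At 24 h it was Unigene41440_All (3387 bases), with 42, 22 and 8 against 611, 181 and 121 and responses of -2.28 in ‘Reken501’ and -1.79 in ‘93-114’. Both were lower in the cold in each clone, with a difference between the clones that stayed between 3.46 and 5.10.

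Unigene6122_All went in opposite directions at 1 h, with a response of -1.60 in ‘Reken501’ and 3.91 in ‘93-114’, and in the same direction at 24 h, with 1.17 and 3.02. The other 6 members with opposite responses at 1 h, named here because of their values, were CL15383.Contig2_All, Unigene23717_All, Unigene36669_All, CL10962.Contig1_All, CL11087.Contig2_All and CL10200.Contig1_All. With library totals alone Unigene6122_All (-1.70 and 3.20) and CL10200.Contig1_All (-1.46 and 1.54) were still at least 2-fold lower in ‘Reken501’ and higher in ‘93-114’, while the other 5 stood 0.39 to 0.98 above control in ‘93-114’, under 2-fold. CL10200.Contig1_All had 20, 7 and 7 fragments in ‘Reken501’ and 227, 692 and 382 in ‘93-114’, and with the median unigene as reference it was the member with opposite responses at 24 h as well. In all 7 the smallest difference between the clones was that at control. Against 1 h this follows from how the 7 were picked, and only the difference at 24 h was free to be smaller.

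Most of the 200 belong to clusters of contigs, as read from their IDs. Of them 153 (76.5%) are contigs of 146 clusters and 47 stand alone. Over all tested unigenes 54.4% are contigs, and 66.2% are among the 20814 with at least 57 fragments in each ‘93-114’ library, the minimum seen in the members. In 7 clusters 2 contigs are members. Their sequences were not compared, and as contigs of 1 cluster those pairs cannot be taken as independent. CL4080 is one of them, with 361, 685 and 565 fragments against 10133, 18159 and 17729 for CL4080.Contig7_All and 196, 290 and 404 against 3503, 7024 and 8548 for CL4080.Contig5_All. CL9005 is another, where CL9005.Contig7_All had 208, 131 and 386 against 3035, 7046 and 6724 beside the contig described above. In ‘93-114’ both contigs of these clusters had more fragments in both cold libraries than at control, as in 4 of the 7 pairs, while in 1 pair both had fewer and in 2 neither held.

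The other contigs of those clusters were read as well. A member held a median of 2.54%, 2.66% and 2.47% of its cluster's fragments in the ‘Reken501’ libraries at control, 1 h and 24 h, and 54.2%, 54.1% and 51.8% in those of ‘93-114’. The 146 clusters hold 672 other contigs that averaged 10 fragments or more. Of these 81 (12.1%) were at least 2-fold higher in ‘Reken501’ at every time and 141 (21.0%) at least 2-fold higher in ‘93-114’, where 8.13% and 8.00% of all such contigs were, and 450 were neither. In 66 of the 146 clusters (45.2%) at least 1 other contig was at least 2-fold higher in ‘Reken501’ at every time. Counted over contigs this holds for 69 of 153 (45.1%), beside 22.0% of all tested contigs, and the median number of other contigs was 3 for both. The study's methods describe transcripts rebuilt on the rubber tree genome with StringTie and levels from Bowtie2 and RSEM for genes named by scaffold, and how the unigenes in these tables were assembled and their shared reads counted is not given in the sources used here. How far contigs of a cluster compete for reads was not tested.

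When the fragments of all contigs of a cluster were summed, much of the difference between the clones went. The smallest difference of the summed cluster had a median of 0.41 over the 153 member contigs, from -1.91 to 5.50, where the contigs' own smallest difference had a median of 4.12. For 52 of them (34.0%) the sum was still at least 2-fold higher in ‘93-114’ at every time, as for 2.34% of all tested contigs. For 67 the sum was within 2-fold at every time, and for 11 it would still have passed the edge of the rule. The shares of all tested contigs for both counts are not given here, so neither can be read as a trait of the members. The sum was at least 2-fold higher for 10 of the 69 with a contig that went the other way and for 42 of the 84 without one, and the median was -0.03 and 1.01 in these groups. Summing includes the member itself, which was chosen for its height in ‘93-114’, so the sum leans the same way by construction. It also includes any contig that went the other way, which lowers the difference of the sum by construction. The split between the 69 and the 84 is therefore a description only.

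**Figure D5:**
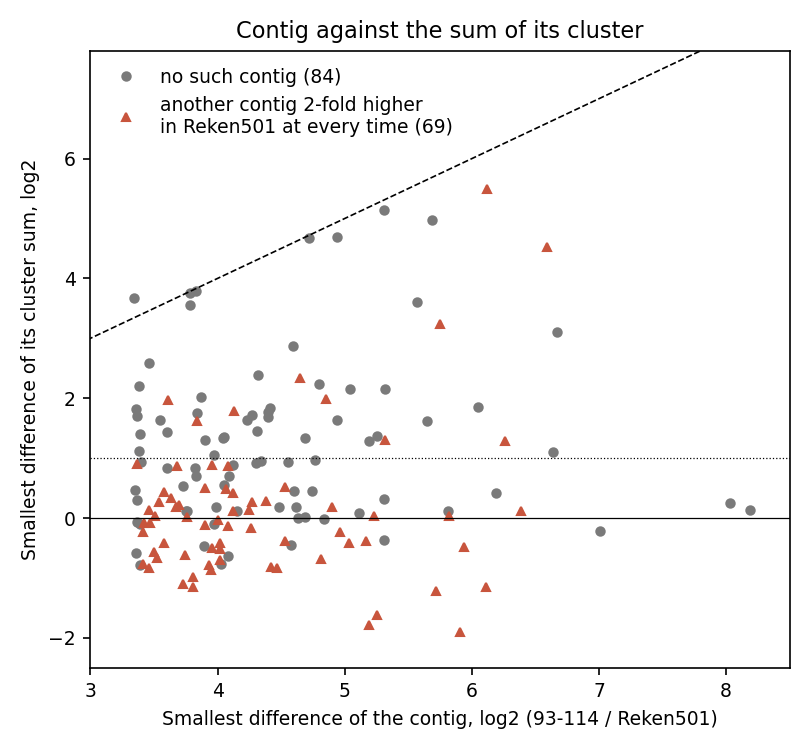
Smallest difference between the clones for each of the 153 member contigs (x axis, log2) against the smallest difference of its summed cluster (y axis, log2), with triangles for the 69 whose cluster holds another contig at least 2-fold higher in ‘Reken501’ at every time. The dashed line marks equal values, the dotted line a 2-fold difference, and most points lie far below the dashed line, 101 of them under the dotted one.

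CL3644, CL11400, CL12002 and CL9005 show this for members named above. CL3644.Contig1_All held 0.199% of its cluster in ‘Reken501’ at control and 54.4% in ‘93-114’, and the cluster summed to 9567 and 11321 fragments there, with differences of the sum of 0.13, 0.96 and 0.95 at the 3 times. For CL11400 the sum differed by 0.25, 1.47 and 1.27, for CL12002 by -0.21, 0.72 and 0.61, and for CL9005 by 0.11, 1.80 and 1.44. At control all 4 sums were within 2-fold, although the member contigs differed by 5.81 or more. CL7239 went otherwise, since its sum differed by 3.46, 3.10 and 3.76.

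The 2 most-read clusters with a contig in the other direction differed from each other. In CL10219 the member had the counts given above, and CL10219.Contig3_All (1439 bases) had 877, 1080 and 728 fragments in ‘Reken501’ and 69, 44 and 33 in ‘93-114’, with differences of -3.78, -4.15 and -4.06. The sum was 1152, 1279 and 974 against 28787, 28580 and 38923, a difference of 4.53, 4.93 and 5.70. In this cluster the sum was still far higher in ‘93-114’, although it differed by less than the member's own 6.59, 7.62 and 7.68.

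In CL3193 the member CL3193.Contig3_All (1712 bases) had 129, 184 and 156 fragments against 6189, 2014 and 2809, with differences of 5.46 (5.22 to 5.73), 3.90 (3.69 to 4.13) and 4.55 (4.32 to 4.79). CL3193.Contig2_All (885 bases) had 2114, 2131 and 2156 against 622, 258 and 286, and CL3193.Contig5_All (1710 bases), of nearly the same length as the member, had 4179, 4344 and 4242 against 3908, 2390 and 2964. The sum of the cluster differed by 0.61, -0.11 and 0.24. The sum of this cluster was thus within 2-fold between the clones at every time.

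The members were long. Their median length was 1591 bases, from 151 to 16715, beside 956 bases over all tested unigenes, and 158 (79.0%) had 1000 bases or more, beside 48.5% of all tested. Among the 20814 tested unigenes with at least 57 fragments in each ‘93-114’ library the median was 1558 bases. Of these 74.4% had 1000 or more, and both values were close to those of the members. That set has the members' lowest count as its minimum and was not matched to their level. The longest member was Unigene6497_All, with 71, 32 and 78 fragments in ‘Reken501’ and 2251, 1536 and 1992 in ‘93-114’. At 16715 bases it is also the longest unigene tested, and its levels in ‘93-114’ were 6.62, 4.33 and 5.44 FPKM. The shortest, Unigene33642_All of 151 bases, had 30, 14 and 25 against 515, 1033 and 1128 fragments, and 168, 322 and 341 FPKM in ‘93-114’. The 2 had fragments of the same order in ‘93-114’, and their FPKM lay far apart because of their lengths.

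For comparison, the 200 unigenes chosen by the same rule in the other direction, always higher in ‘Reken501’, ended at a smallest difference of 3.30, close to the 3.34 here. They held 165 contigs (82.5%) with a median length of 1713 bases, and 89 of those contigs (53.9%) had another contig in their cluster at least 2-fold higher in ‘93-114’ at every time. Of the 146 clusters here, 19 held a contig of that list, and the sums of 12 of these 19 were within 2-fold at every time. The same shares over all clusters are not given here, so these counts cannot be read as a trait of the members. The 512 unigenes read only in ‘93-114’, with 10 fragments or more in each of its libraries and 0 in ‘Reken501’, were 217 contigs (42.4%) with a median length of 416 bases, and 71 of those contigs (32.7%) had a contig in the other direction. The lists were set by the same counts and are given side by side with no test.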

How the data were processed

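Leaf RNA of 2 clones at 3 times was measured in 6 libraries, 1 per condition, of 20.4 M to 21.9 M fragments. The authors deposited 4 tables, each with 1 cold-treated library beside the control of its clone. Each table lists, for every unigene, the raw fragment count made by the authors and the deposited FPKM, that count per kilobase and per M fragments. The study's methods name StringTie, Bowtie2 and RSEM for genes on the rubber tree genome. How the unigenes in these tables were assembled and counted is not given in the sources used here. The authors' own comparisons (log2 ratio, p-value and false discovery rate) were not used. Of the unigene IDs, 0 matched the 50196 genes of the RefSeq annotation.

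Counts were joined over the tables, with an absent unigene at 0, using scipy 1.17.1, pandas 2.3.3 and numpy 2.4.6 under Python 3.11.15. The computing of the selection was checked on simulated counts with planted changes. Those counts had counting error only, with no spread between trees and no reads shared between contigs. The check therefore says nothing of how sound the selection is in these data. With 1 library per condition no test was run, and a change is counted from 2-fold. A contig was set against others of its cluster with a mean of at least 10 fragments. Named members were the 5 with the highest smallest difference, the 3 highest and 1 lowest by mean FPKM in ‘93-114’, those at the edge of the rule, the extremes of the cold response, of the span of differences and of length, and the 2 most-read clusters with a contig in the other direction. The members, lists and rules were chosen with earlier results of these data known. Alternatives were library totals alone, edgeR 4.0.16 TMM factors and DESeq2 1.42.0 size factors (R 4.3.3), 1 fragment added in place of 0.5, and minimums of 10, 20 or no fragments in each library. Summing contigs before the rule was chosen after seeing the data, as were the other scalings of responses in both clones. So was the set of unigenes with at least 57 fragments in each ‘93-114’ library for the comparison of lengths.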

Additional observations from a re-analysis of the deposited data

Results flagged for a closer look

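At 1 h the median response of the 200 unigenes to cold was -0.05 on the log2 scale in ‘Reken501’ and 0.16 in ‘93-114’, opposite in sign. When libraries were set to their totals alone, the 200 then chosen shared 180 with these. Both of their medians were below 0 (-0.19 and -0.48). Unigene6122_All had a response of -1.60 in ‘Reken501’ and 3.91 in ‘93-114’ at 1 h, from 136 to 42 and from 1870 to 17948 fragments, and of -1.70 and 3.20 with library totals alone. Neither difference between the clones was tested, since each clone has 1 library at each time.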

How the results depend on the processing

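Over 17 results and the alternatives, 82 of 94 recomputed values stayed near the one reported and 12 moved. Here near means a count within 1.5 times, the last difference within its counting interval, or the median length within its interval over ranks. For a minimum of 20 and for no minimum the tally holds only 4 results each. Counts of responses in both clones are also outside it. With library totals alone each of those counts moved, and with TMM factors or DESeq2 size factors each stayed near. With TMM factors, DESeq2 size factors or 1 added fragment, 0 of 17 moved. With library totals alone 180 of the 200 were kept. Among the 200 then chosen, 16 at 1 h and 12 at 24 h were at least 2-fold higher than control in ‘93-114’, and 42 and 47 lower. The cause was not tested. With at least 10 fragments in each library, 121 of the 200 were kept and the smallest difference of the last member was 2.85. Among the 200 then chosen, those lowered numbered 12 at 1 h and 9 at 24 h in ‘Reken501’ and 5 at 1 h in ‘93-114’. A minimum of 20 kept 71 of the 200, and no minimum kept 7. Outside the tally, the 200 chosen at a minimum of 20 had 11 raised and 8 lowered in ‘Reken501’ at 1 h (3.35% and 3.62% of all tested). At 24 h these were 22 and 9 (5.8% and 6.91%). In ‘93-114’ they were 42 and 3 at 1 h (11.0% and 4.64%) and 34 and 6 at 24 h (9.48% and 6.99%). With no minimum, the 200 then chosen had 34 raised and 9 lowered in ‘93-114’ at 1 h (20.0% and 17.0% of all tested). At 24 h 21 were raised and 24 lowered there (23.0% and 20.9%). In ‘Reken501’ 16 were raised and 10 lowered at 1 h (17.6% and 16.7%), and 20 and 12 at 24 h (23.9% and 16.6%). When contigs were summed per cluster before the rule, 62 of the 200 stayed, 47 single unigenes and 15 contigs, an alternative chosen after seeing the data. Fewer or more unigenes are tested under another minimum by construction. No paired analysis was possible because each condition has 1 library, the labels give no replicate number that pairs libraries, and the differences between the clones at the same time were themselves used to choose the 200.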
